A study of Mus musculus with 6 samples.

Results

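The mitochondrial respiratory chain and ATP synthase are described here through 92 nuclear genes, out of 27364 gene symbols in the authors' deposited comparison table. Members were all symbols that begin with Ndufa, Ndufb, Ndufc, Ndufs, Ndufv or Uqcr, with Cox4 to Cox8, or with Atp5, together with Sdha, Sdhb, Sdhc, Sdhd, Cyc1 and Cycs. Symbols ending in -ps were left out. Where a symbol had more than 1 transcript cluster, the cluster with the greatest average signal across the 6 arrays stood for it, and no measured difference entered the choice. The members comprised 35 subunits of complex I, 4 of complex II, 9 of complex III, cytochrome c, 20 genes of complex IV, 15 of ATP synthase and 7 assembly factors. The remaining member, Atp5l-ps1, has a name of the pseudogene form but does not end in -ps, so the rule kept it. Its parent gene Atp5l had no cluster under that symbol.

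Each array measured ribosome-bound mRNA on the Affymetrix mouse gene array MoGene-2_0-st. The LPS group received 5 mg/kg lipopolysaccharide, the endotoxin of Gram-negative bacteria, and the saline group received saline, both for 24 h. Each group had 3 arrays, and each array pooled 5 mice, aged 2 to 3 months, males and females in equal number. Mice of both groups carried the transgene Flag/EGFP-RPL10a, a tagged ribosomal protein, driven by the CD11b promoter, a promoter of microglia and other myeloid cells. Translating ribosome affinity purification (TRAP) captures such ribosomes together with their mRNA, and 100 ng of that RNA was labelled per array. No tissue is named in the labels used here.

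Values are log2 signals, so a difference of 1 is a doubling, and differences are LPS minus saline. Signal also depends on the probes, so levels of different genes are not compared. The median signal over 34472 tested clusters was 5.17, 5.19 and 5.42 in LPS 1, 2 and 3, against 5.17, 5.15 and 5.35 in saline 1, 2 and 3. The arrays numbered 3 in both groups stood apart from the other 4 on the first principal component, which held 53.2% of the variance. A list of 6 interferon-stimulated genes (Ifi44, Irf7, Isg15, Oasl2, Gbp2 and Ifitm3) was read as a check of the response. It was chosen with earlier results of these data known, so it is not independent support. The median difference of the 6 was 2.45, and in each the lowest LPS array exceeded the highest saline array. Of these Ifi44, an interferon-induced protein, was the only cluster on the array past the threshold (limma adjusted p = 0.0395). The limma adjusted p of the other listed genes ran from 0.142 to 0.549.

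Markers of 8 cell types were measured in the purified RNA, and all members of each list had a cluster. The median signal was 11.02 over the neuron markers, 6.83 over the microglia markers and 4.63 over the neutrophil markers, beside 5.23 over all tested clusters. Signal depends on the probes, so these levels do not rank the cell types, and a cluster with a signal is not proof of expression. The gene of CD11b, Itgam, differed by 0.35 ± 0.17 (SE) and was the only 1 of the 10 microglia markers above 0. Over those 10 the median difference was -0.24, with P2ry12 at -1.24 ± 0.34, Siglech at -0.94 ± 0.24 and Fcrls at -0.70 ± 0.20. The median was -0.04 over the neuron markers, 0.19 over the astrocyte markers and 0.17 over the endothelial markers. Of the 8 astrocyte markers 2 lay below 0, and Gfap stood highest at 1.19 ± 0.28. The 8 markers of neutrophils, which also express CD11b, had a median difference of 0.36 with 7 above 0, among them S100a9 at 1.22 ± 0.24 and S100a8 at 1.47 ± 0.44. The remaining neutrophil marker, Ly6g, stood at -0.27 ± 0.26. None of these markers passed the adjusted threshold, and the part of cell make-up in the members' differences was not tested. Respiratory chain genes are used by every one of these cell types, and the cell type in which a member's mRNA was bound was not measured. In pooled RNA, fewer cells of a type and less RNA per cell cannot be told apart.

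The respiratory chain passes electrons from NADH through complex I, or from succinate through complex II, to ubiquinone, then through complex III and cytochrome c to complex IV, which reduces oxygen. Complexes I, III and IV pump protons across the inner mitochondrial membrane, and ATP synthase uses their return flow to make ATP. Most subunits are encoded in the nucleus, while a few of the membrane-embedded ones are encoded by mitochondrial DNA. Macrophages and microglia exposed to LPS are known to lean on glycolysis, and the chain is also a source of reactive oxygen species in such cells. The 13 mitochondrially encoded subunits are not analysed here.

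No respiratory chain or ATP synthase gene passed the test. None of the 92 members had a limma adjusted p under 0.05, where 0.0029% of all tested clusters did, and the smallest adjusted p among members was 1. At an unadjusted p under 0.05 the count was also 0, against a background of 2.26%. The median difference over the members was -0.09, and 74 of 92 (80.4%) lay below 0, against a median of -0.0016 and 50.4% below 0 over all tested clusters. Of the members, 87 lay above the median signal of the array, and over all clusters above that median the share below 0 was 54.4%. Differences ran from -0.54 for Atp5g1 to 0.25 for Cox8b.

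Intervals show how much change these 6 arrays leave room for. The 95% confidence interval of the difference covered 0 for all 92 members. It lay within a 2-fold change either way for 90 of them and within a 1.5-fold change for 49. Only Atp5g1 differed by more than 0.5 in either direction, 6 members differed by more than 0.3, and 45 by less than 0.1.

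**Figure D1:**
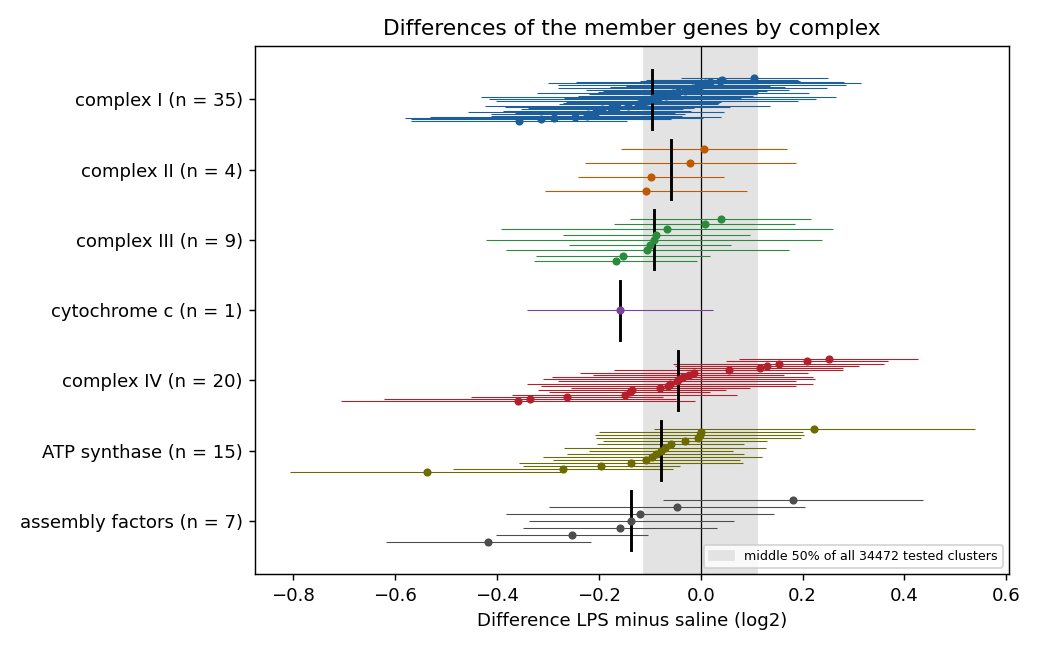
Difference of each member gene, LPS minus saline, on the log2 scale, with limma's standard error as a thin line; black bars are the median of each group of genes and the grey band holds the middle part of all tested clusters. Medians of all 7 groups lie left of 0, from -0.16 for cytochrome c to -0.04 for complex IV, and most points lie within 0.3 of 0.

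The size and sign of the median depended on which arrays entered. Saline 3 had the highest value of the 6 arrays in 65 of the 92 members, where 31.7% of all tested clusters and 39.4% of the brighter ones had their highest value there. Without saline 3 the median difference over the members was 0.03 and 37 of 92 (40.2%) lay below 0, beside 0.06 and 38.8% for all tested clusters. Without both arrays numbered 3 it was -0.03, with 62 of 92 (67.4%) below 0, beside 51.4% of all tested clusters. Leaving out any other array gave medians between -0.19 and -0.04. Within the pairs of equal number the median difference was -0.04 for number 1, -0.06 for number 2 and -0.18 for number 3. Below 0 were 53 (57.6%), 54 (58.7%) and 76 (82.6%) members, beside 50%, 52.1% and 49.5% of all tested clusters. The sign of a member's own difference was another without saline 3 in 45 of 92, and 32 members kept their sign whichever array was left out, 27 of them below 0. The matching shares of all tested clusters are not given here, so these counts are not read as particular to the members.

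**Figure D2:**
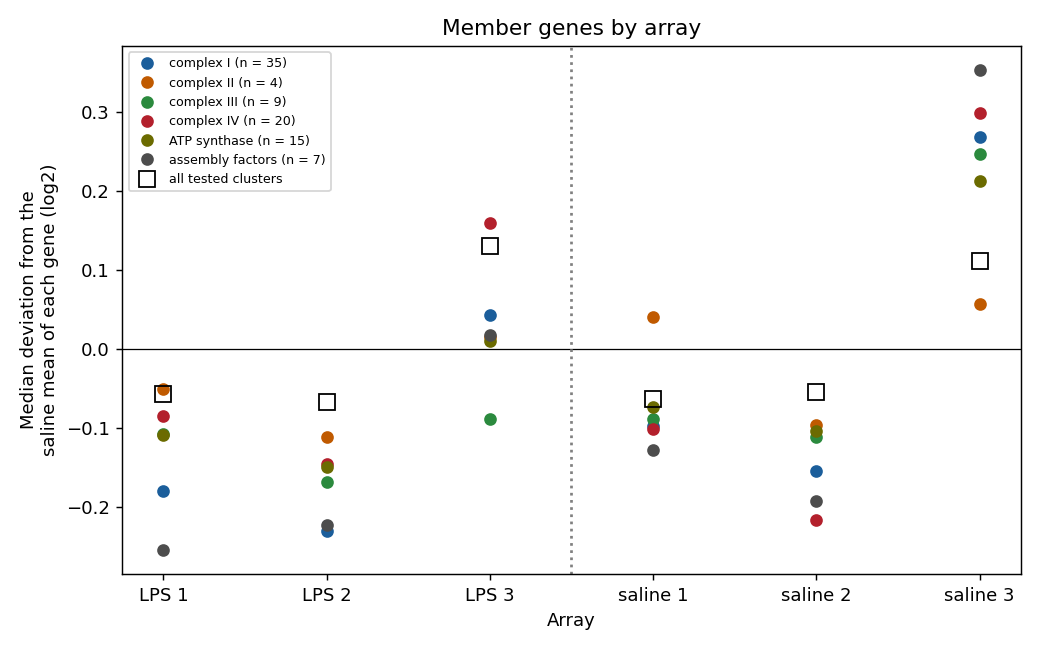
Median deviation of each group of member genes from the genes' own saline means, in log2 units, for each array; open squares give the same median over all tested clusters. In saline 3 the groups lie above 0 and, complex II apart, above the square for all clusters, while in LPS 3 the groups other than complex IV lie below it.

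Complex I, the NADH dehydrogenase, had a median difference of -0.10 over its 35 members, 29 of them below 0. It was 0.03 without saline 3 and -0.07 without both arrays numbered 3. The 7 core subunits, which carry the flavin and the iron-sulphur clusters and are conserved from bacteria, had a median of -0.03 and values from -0.12 for Ndufs8 to 0.04 for Ndufs3. Ndufv1, which binds the flavin that takes electrons from NADH, had 10.26, 10.15 and 9.88 in LPS arrays 1, 2 and 3, against 10.22, 10.35 and 9.78 in saline arrays 1, 2 and 3. The groups overlapped, with the lowest value of each in array 3, and the difference was -0.03 ± 0.20 (SE). Ndufs1, the largest subunit of the NADH-oxidising arm, had 9.66, 9.56 and 8.84 after LPS and 9.50, 9.67 and 8.88 after saline. Its group means were equal to 2 decimals, at 9.35 ± 0.45 after LPS and 9.35 ± 0.42 after saline (SD, n = 3 each).

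The 28 accessory subunits of complex I surround this core and are needed for its assembly and stability. Their median difference was -0.11, with 25 of 28 below 0, and it was 0.03 with 11 below 0 without saline 3, and -0.09 with 19 below 0 without both arrays numbered 3. The greatest fall was at Ndufb2, a subunit of the membrane arm, with 7.14, 6.72 and 7.15 in LPS arrays, against 7.22, 7.14 and 7.72 in saline arrays. LPS 1 and LPS 3 lay just above saline 2, so the groups overlapped, and the difference was -0.36 ± 0.21 (limma unadjusted p = 0.13). Ndufa2, of the NADH-oxidising arm, had 8.43, 8.40 and 8.90 after LPS and 8.79, 8.49 and 9.39 after saline. The LPS value was the lower in each pair of equal number, and the difference of -0.31 ± 0.26 was -0.06 without saline 3 and -0.23 without both arrays numbered 3. Ndufa13, also known as GRIM-19 from interferon and retinoic acid induced cell death, differed by -0.21 ± 0.16, Ndufb6 by -0.19 ± 0.16 and Ndufs4, which helps to hold the NADH-oxidising arm in place, by -0.20 ± 0.19. At the other end stood Ndufb3, of the membrane arm, at 0.10 ± 0.14, while its second, dimmer cluster differed by -0.08.

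Assembly factors are not part of the finished complex but help to build it. The 7 such members had a median of -0.14, with 6 below 0, a median of 0.04 without saline 3 and -0.03 without both arrays numbered 3. Ndufaf5, whose human product hydroxylates a core subunit during assembly, had the smallest p of all members. It had 7.15, 6.66 and 7.15 in LPS arrays, against 7.34, 7.21 and 7.66 in saline arrays, and every LPS array lay below every saline array. The difference was -0.42 ± 0.20 (95% interval -0.88 to 0.04, limma unadjusted p = 0.0711, adjusted p = 1), and it stayed between -0.51 and -0.25 with 1 array left out. Ndufaf1, which acts in assembly of the membrane arm, had 7.38, 7.50 and 7.54 after LPS and 7.64, 7.68 and 7.85 after saline, again with no overlap. Its arrays were close within each group, the difference was -0.25 ± 0.15 (unadjusted p = 0.126), and with 1 array left out it ran from -0.29 to -0.19. Atp5sl, which despite its name acts in assembly of the distal membrane arm of complex I in human cells, differed by 0.18 ± 0.26, with overlapping groups.

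Groups did not overlap for 4 members. All LPS arrays lay below all saline arrays in 3 of 92, namely Ndufaf5, Ndufaf1 and Atp5o, where 3.1% of all tested clusters did so. All LPS arrays lay above in 1, Cox5b, where 3.61% of all tested clusters did so. The first count was near its background and the second below it.

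**Figure D3:**
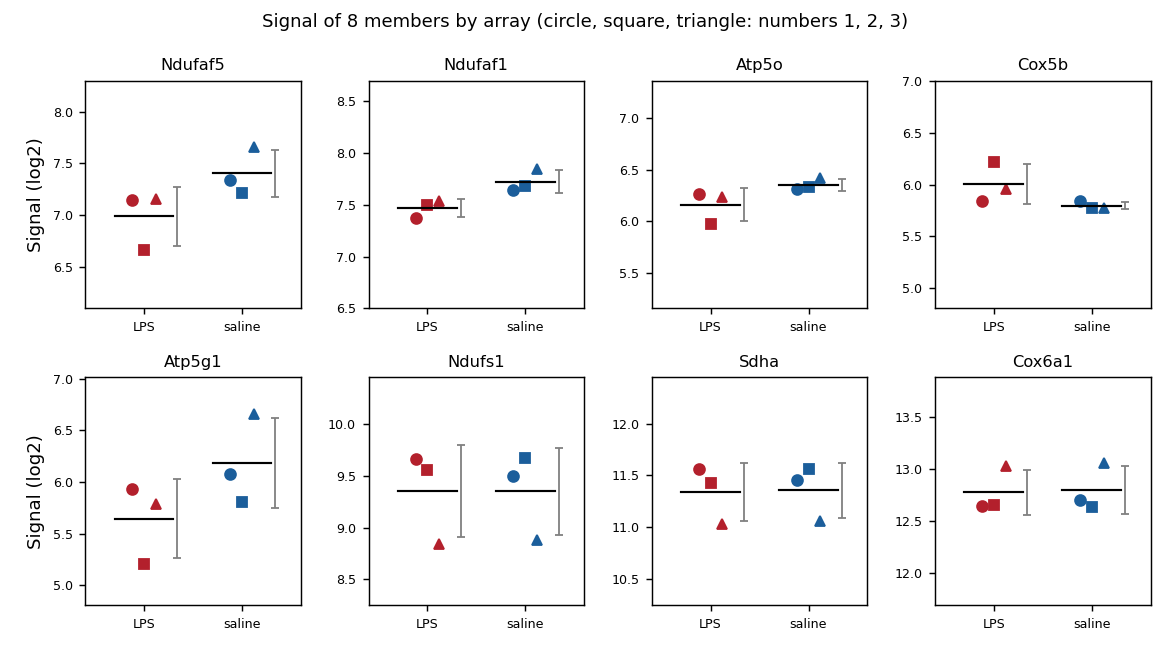
Log2 signal of 8 member genes in each array, LPS left and saline right, with the mean as a black bar and the SD as a grey bar (n = 3 each); every panel spans the same range. Ndufaf5, Ndufaf1 and Atp5o have LPS points below all saline points and Cox5b above them, while in Ndufs1 and Sdha the triangle (array 3) is lowest and in Cox6a1 highest in both groups.

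Complex II, succinate dehydrogenase, feeds electrons from the tricarboxylic acid cycle into the chain. Its 4 genes differed by -0.11 to 0.01, with a median of -0.06. Sdha, the flavoprotein that oxidises succinate, had 11.56, 11.42 and 11.02 after LPS and 11.46, 11.56 and 11.05 after saline. Array 3 was lowest in both groups, and the difference was -0.02 ± 0.21. Sdhb, which holds the iron-sulphur clusters, differed by -0.10 ± 0.14, and the membrane anchors Sdhc and Sdhd by -0.11 ± 0.20 and 0.01 ± 0.16.

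Complex III passes electrons from ubiquinol to cytochrome c. Its 9 members had a median of -0.09, with 7 below 0. It was -0.03 without saline 3 and -0.0016 without both arrays numbered 3. The greatest fall was at Uqcrq, a small subunit, at -0.17 ± 0.16, and the greatest rise at the core protein gene Uqcrc2, at 0.04 ± 0.18. Cyc1, cytochrome c1, had 8.93, 8.69 and 8.90 after LPS and 8.89, 8.85 and 9.24 after saline, a difference of -0.15 ± 0.17 with overlapping groups. Uqcrfs1, the Rieske iron-sulphur protein, differed by -0.10 ± 0.16. Cycs, the soluble cytochrome c that also triggers apoptosis when released, had 10.61, 10.31 and 10.53 after LPS, against 10.67, 10.38 and 10.88 after saline. The LPS value was the lower in each pair of equal number, with differences of -0.05, -0.07 and -0.35, and the difference of the means was -0.16 ± 0.18.

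Complex IV, cytochrome c oxidase, reduces oxygen to water. Its 20 genes had a median of -0.04, with 14 below 0, and the median was 0.16 with 4 below 0 without saline 3, and 0.0095 with 10 below 0 without both arrays numbered 3. Among the 11 common forms, 9 lay below 0. The greatest fall was at Cox4i1, the main form of subunit 4, with 10.35, 10.42 and 10.80 after LPS and 10.67, 10.32 and 11.04 after saline. The difference of -0.15 ± 0.22 was 0.03 without saline 3 and -0.11 without both arrays numbered 3. Cox5b, a zinc-binding subunit on the matrix side, had 5.85, 6.22 and 5.96 after LPS, against 5.84, 5.78 and 5.78 after saline. LPS 1 exceeded saline 1 by less than 0.1, and the difference was 0.21 ± 0.16 (limma unadjusted p = 0.223). Cox6a1 differed by -0.02 ± 0.19, Cox7a2 by -0.06 ± 0.25, Cox8a by -0.05 ± 0.23 and Ndufa4, a subunit once assigned to complex I, by -0.08 ± 0.18.

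Several subunits of complex IV have second forms that replace the common one in muscle, testis, lung or low oxygen. Of these 8 tissue-restricted forms 4 lay below 0 and 4 above. Cox8b, the heart and skeletal muscle form of subunit 8 in mice, had the greatest rise of all members, with 4.58, 4.30 and 4.78 after LPS and 4.41, 4.16 and 4.34 after saline. LPS 2 lay below saline 1 and saline 3, and the difference was 0.25 ± 0.18. The other muscle forms lay on the opposite side, with Cox6a2 at -0.34 ± 0.29 and Cox7a1 at -0.13 ± 0.18. Of the testis forms Cox6b2 stood at -0.26 ± 0.19, Cox7b2 at -0.36 ± 0.35 and Cox8c at 0.05 ± 0.23. The clusters of Cox8b, Cox7b2 and Cox8c were among the 5 of members not above the median signal of the array. Their saline means were 4.30, 2.89 and 3.10, so their differences rest on dim signal. Cox4i2, a form of subunit 4 known from lung and low oxygen, differed by 0.12 ± 0.16, and Ndufa4l2, a relative of Ndufa4 induced by low oxygen, by 0.13 ± 0.18. Cox7a2l, which joins complexes III and IV into supercomplexes, differed by -0.04 ± 0.27.

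ATP synthase has a catalytic F1 part, a membrane-embedded Fo part that turns with proton flow, and stalks that connect them. The 15 genes had a median of -0.08, with 13 below 0, a median of -0.0002 without saline 3, and -0.06 with 13 below 0 without both arrays numbered 3. All 5 genes of F1 lay below 0, with Atp5b and Atp5a1, the catalytic β and the α subunit, at -0.09 ± 0.17 and -0.0022 ± 0.21, and Atp5e, the ε subunit, lowest at -0.27 ± 0.22. The difference of Atp5e was -0.06 without saline 3 and -0.17 without both arrays numbered 3. Its second, dimmer cluster differed by -0.0017 ± 0.14. Of the 10 genes of Fo and the stalks, 8 lay below 0. Atp5o, the stalk protein OSCP that ties F1 to the membrane part, had 6.27, 5.98 and 6.24 after LPS, against 6.31, 6.34 and 6.42 after saline. LPS 1 was within 0.1 of saline 1, no LPS array reached a saline array, and the difference was -0.19 ± 0.15. Atp5j2, a small membrane subunit, had the greatest rise of the Fo and stalk genes at 0.22 ± 0.32, and LPS 3 at 5.65 was its highest value. The rise rested on that array, since the difference became -0.13 once LPS 3 was dropped. With neither array numbered 3 it was -0.03. The authors' deposited fold for Atp5j2 was -1.26, lower after LPS. Its cluster was not above the median signal of the array, with a saline mean of 4.73, so its difference rests on dim signal.

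The 3 genes Atp5g1, Atp5g2 and Atp5g3 encode the same mature c subunit of the rotating ring. Atp5g1 had 5.93, 5.21 and 5.79 in LPS arrays, against 6.08, 5.80 and 6.66 in saline arrays. Only LPS 1 lay above the lowest saline array. The difference was -0.54 ± 0.27 (95% interval -1.16 to 0.08, limma unadjusted p = 0.0812), the greatest of any member, and it was -0.30 without saline 3 and -0.37 without both arrays numbered 3. Atp5g2 had 10.40, 10.43 and 10.89 after LPS and 10.51, 10.39 and 10.84 after saline, a difference of -0.0045 ± 0.20. Atp5g3 differed by -0.06 ± 0.14 with overlapping groups. Whether the 3 differences differ from each other was not tested.

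The arrays numbered 3 moved many members together in both groups. Relative to arrays 1 and 2 of the same group, the median offset over members was 0.20 in LPS 3 and 0.40 in saline 3, beside 0.20 in LPS 3 and 0.17 in saline 3 over all tested clusters. The offsets in LPS 3 and saline 3 correlated across the members (Pearson r = 0.73, Spearman rho = 0.72, n = 92 genes that share arrays), and across all clusters above the median signal the Pearson value was 0.73 as well. Both arrays numbered 3 held the highest 2 of the 6 values in 46 members, where 35.8% of all tested clusters and 42.6% of the brighter ones did so.

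A further 7 members went the other way, with both arrays numbered 3 the lowest 2 of the 6, where 8.62% of all tested clusters and 11.5% of the brighter ones did so. As a share of all members this count lay below both. The 7 were Ndufs1, Ndufv1, Sdha, Uqcrc1, Uqcrc2, Atp5a1 and Atp5b. Each encodes a large subunit of the catalytic or core part of its complex, a description made after the values were seen. Other core genes differed, and 5 of the 7 core subunits of complex I had offsets above 0 in both arrays numbered 3. The offset of Ndufs1 was -0.77 in LPS 3 and -0.71 in saline 3, that of Sdha -0.47 in LPS 3 and -0.45 in saline 3, and that of Atp5a1 -0.33 in LPS 3 and -0.55 in saline 3. Tricarboxylic acid cycle genes were low in the same arrays, with a median offset of -0.21 in LPS 3 and -0.24 in saline 3. The median offset of neuron markers was -0.27 in LPS 3 and -0.36 in saline 3. Over all tested clusters it was 0.20 in LPS 3 and 0.17 in saline 3. For oligodendrocyte markers it was 0.38 in LPS 3 and 0.27 in saline 3, for endothelial markers 0.37 and 0.27. For pericyte and vascular smooth muscle markers it was 0.20 and 0.25 in that order, and for striated muscle markers 0.15 and 0.13. For neutrophil markers it was 0.66 and 0.12, for astrocyte markers 0.03 and -0.14, and for microglia markers -0.17 and 0.18. The part of cell make-up or of RNA quality in these offsets was not tested.

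**Figure D4:**
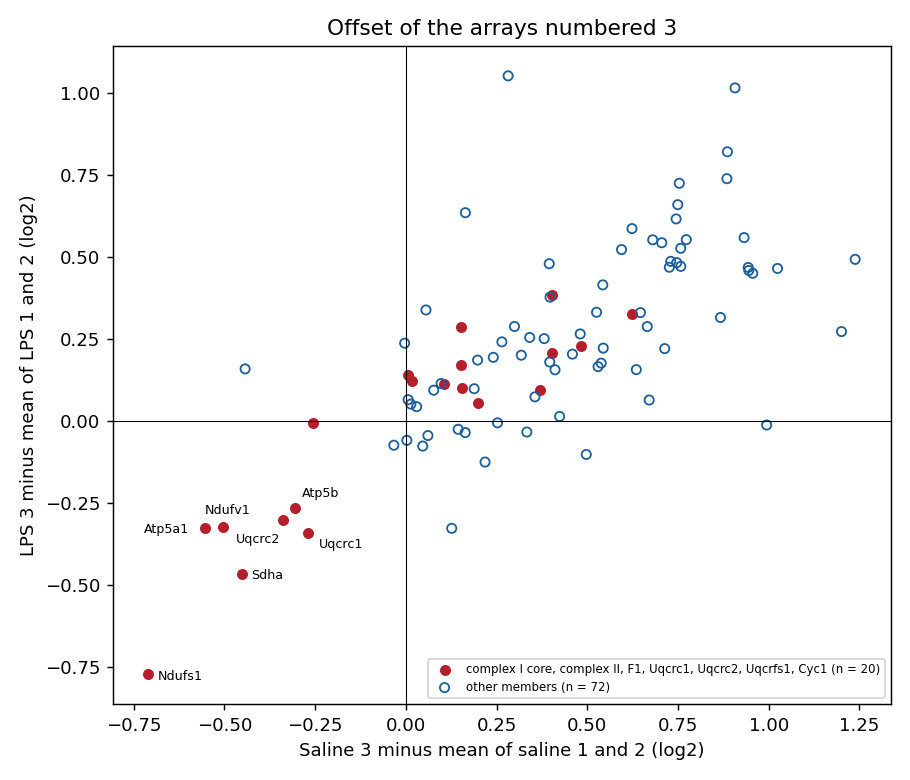
Offset of array 3 from arrays 1 and 2 in log2 units, for saline on the horizontal and LPS on the vertical axis; filled points are the core subunits named in the legend, a grouping made after the values were seen. Most members lie right of and above 0, and the 7 labelled genes lie below 0 on both axes, Ndufs1 farthest.

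Other genes of mitochondrial energy metabolism were measured beside the members, and none passed. The 16 genes of the tricarboxylic acid cycle and pyruvate dehydrogenase, all measured, had a median difference of -0.02, with 10 below 0, and Fh1, fumarate hydratase, had the smallest p at -0.12 ± 0.19. The median of the 16 was -0.13 without saline 3 and -0.07 without both arrays numbered 3. Of 21 listed complex IV assembly factors outside the member rule 19 were measured, with a median of -0.11 and 15 below 0. It was 0.04 with 6 below 0 without saline 3, and -0.05 with 11 below 0 without both arrays numbered 3. Coa4 stood lowest there, with 5.98, 5.55 and 6.32 after LPS and 6.28, 6.43 and 6.73 after saline. Only LPS 3 reached above a saline array, and the difference was -0.53 ± 0.23 (limma unadjusted p = 0.0465, adjusted p = 1). Of 16 other assembly factors of complexes I to III 11 were measured, with a median of -0.15, and Bcs1l, which inserts the Rieske protein into complex III, differed by -0.24 ± 0.18. The median of these 11 was -0.03 without saline 3 and -0.08 without both arrays numbered 3.

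Genes that make or decode mitochondrial mRNA were measured too. The 74 mitochondrial ribosomal protein genes had a median of -0.09 with 63 below 0, and a median of 0.03 with 29 below 0 without saline 3, and -0.05 with 50 below 0 without both arrays numbered 3. The 91 cytosolic ribosomal protein genes had a median of 0.0022, with 45 below 0, 0.19 without saline 3 and 0.04 without both arrays numbered 3. Whether the members differ from either list was not tested. Of 14 listed regulators of mitochondrial biogenesis 13 were measured, with a median of -0.09 and 9 below 0, and none passed. Their median was -0.01 without saline 3 and -0.05 without both arrays numbered 3. Among them were Gabpb1, a subunit of the GABP transcription factor, at -0.21 ± 0.15 and Tfam, which packages and transcribes mitochondrial DNA, at -0.16 ± 0.18.

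Promoters of respiratory chain genes are known for binding sites of the transcription factors NRF1, GABP, YY1 and ERR. RefSeq promoter sequences (GRCm38.p6, 250 bases before to 50 after the start) were matched by symbol for 71 of the 92 members. The NRF1 motif, GCGCA and GCGC with any base between them, was searched on both strands, as were the others. It was found in 18 of 71 members (25.4%) and in 7.17% of 17492 protein-coding genes. The YY1 motif AANATGGC was found in 17 of 71 (23.9%), against 7.46% of all genes. For the GABP motif CCGGAAG the share was 22.5% of members and 12.9% of all genes, and for the ERR motif TCAAGGTCA 2.82% of members and 0.377% of all genes. Member promoters held a median of 19 CpG dinucleotides, against 13 over all promoters. The shares were not adjusted for base composition. None of the 4 motifs contains another, and a match is a string of letters and not a measured site. Members with an NRF1 match had a median difference of -0.10, and members without one -0.09. The following stretches show NRF1 motif matches in capitals, 1 gene each from complexes I, II, IV and ATP synthase, all on the minus strand of GRCm38.p6 and read 5′ to 3′ towards the start of the gene. They lie at chr4:123718250-123718309 for Ndufs5, chr13:74350241-74350363 for Sdha, chr5:115349041-115349145 for Cox6a1 and chr5:108434415-108434474 for Atp5k.
Ndufs5: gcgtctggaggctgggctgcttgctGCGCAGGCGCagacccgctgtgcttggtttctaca
Sdha: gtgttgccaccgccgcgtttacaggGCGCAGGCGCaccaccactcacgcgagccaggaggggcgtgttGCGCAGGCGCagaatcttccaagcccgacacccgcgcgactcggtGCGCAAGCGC
Cox6a1: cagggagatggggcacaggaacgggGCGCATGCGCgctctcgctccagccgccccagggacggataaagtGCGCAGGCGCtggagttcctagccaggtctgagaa
Atp5k: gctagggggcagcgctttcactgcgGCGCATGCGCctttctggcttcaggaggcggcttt
Sdha held 3 matches, the last ending at the base before the start, Cox6a1 held 2, and the other genes 1 each. The differences of these genes were -0.22 ± 0.19 for Ndufs5, -0.02 ± 0.21 for Sdha, -0.02 ± 0.19 for Cox6a1 and -0.09 ± 0.22 for Atp5k, none past the threshold.

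In all, 12 members were represented by more than 1 cluster on the array, and for 5 of them (Cox7b, Ndufa6, Ndufa8, Ndufb3 and Sdhd) the clusters differed in sign. For 19 members the description in the deposited table named several genes, which included Atp5o, Cox5b, Ndufb2, Ndufb3, Cycs, Sdhb and Atp5g2, so their signal may hold related sequences. The authors' deposited table gave a fold below 0, meaning lower after LPS, for 63 members and above 0 for 29, with 48.8% of all clusters below 0. Its sign was opposite to the difference of the array means for 23 members. Its group averages are bi-weight means, per the file headers, and not plain means. In that table the largest fold of a member was 1.35 in size, and no cluster had an adjusted p-value under 0.05. Unadjusted, 1 member had a p-value under 0.05 (Ndufaf1). The members' p-values there equal, after rounding, those of the plain equal-variance test run on the arrays. By that test 3.13% of all tested clusters had an unadjusted p under 0.05.

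**Figure D5:**
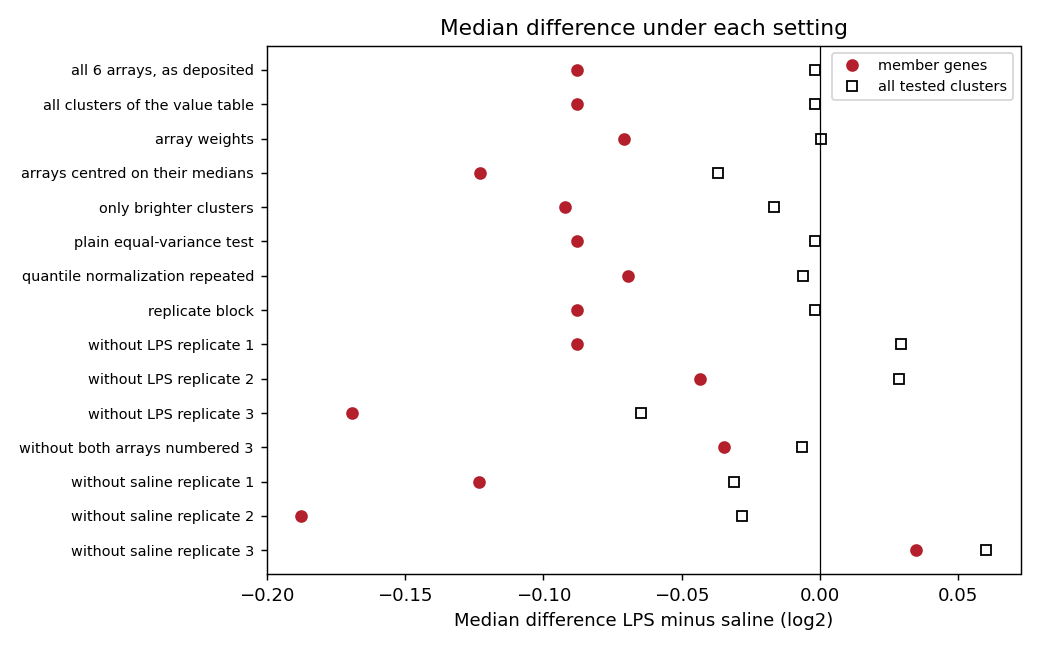
Median difference LPS minus saline in log2 units over the member genes (filled) and over all tested clusters (open) under each way of processing. The members lie left of 0 and left of all clusters throughout except without saline replicate 3, where both lie right of 0 and the members, at 0.03, still lie left of all clusters at 0.06.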

How the data were processed

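Ribosome-bound RNA was measured on 3 LPS and 3 saline arrays. Per the submitters' processing notes, the authors used RMA and Affymetrix Expression Console to make the deposited log2 values of each transcript cluster. RMA equalises arrays at probe level, and differences of dim clusters can be compressed in its values. The genome build is not given in the sources used. Per the file headers, the authors' deposited comparison table, made with Transcriptome Analysis Console (3.0 per the design text), gives a signed linear fold, a p-value and an adjusted p-value per cluster, and the gene symbols. Of 41345 clusters with values, 34472 are in that table and were tested, and the other 6873 entered only an alternative.

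Differences were fitted in R 4.3.3 with limma 3.58.1 (functions lmFit and eBayes, no term but group), with Benjamini-Hochberg adjustment over 34472 clusters at 0.05, checked on simulated data. SE is limma's moderated standard error, and SD is between the 3 arrays of a group, whose number limits the precision. The labels call the arrays biological replicates. The labels do not say what the array numbers stand for. Deviations of arrays with the same number correlated by 0.27, 0.12 and 0.56, all over the criterion of 0.1 for a pairing. Unlike numbers passed it too, with 0.41 for LPS 1 and saline 2 and 0.14 for LPS 2 and saline 1. The criterion therefore cannot decide whether arrays 1 and 2 pair by number. The replicate block was run as an alternative only. Genes named with full values were the 12 members with the smallest p, the extremes of each role list, and members chosen for their known roles. Other settings were array centring, repeated quantile normalization, array weights, a plain test, brighter clusters only and leaving out arrays. The members and all lists were chosen with earlier results of these data known.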

Additional observations from a re-analysis of the deposited data

How the results depend on the processing

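No member passed the adjusted threshold under any setting run, and the median over members lay between -0.19 and -0.03 under all settings except without saline 3, where it was 0.03. With the replicate block 3 clusters of the array passed instead of 1, none of them a member. Under the block 3 members had an unadjusted p under 0.05 by limma, where 5.85% of all clusters did. They were Atp5g1 (limma unadjusted p = 0.0144), Ndufaf5 (unadjusted p = 0.019) and Ndufb2 (unadjusted p = 0.0439), and the smallest limma adjusted p was 0.722. The block changed no other call. By the plain equal-variance test 1 member, Ndufaf1, had an unadjusted p under 0.05, against 3.13% of all clusters. It is the same result as the authors' deposited p-value for Ndufaf1 and not a further one. Clusters past the threshold numbered 0 over all clusters of the value table or by the plain test, 22 with array weights, 2 without both arrays numbered 3, and 0 to 12 with 1 array left out. Members with all LPS arrays below all saline arrays numbered 8 with arrays centred on their medians, 6 after repeated quantile normalization, 11 without both arrays numbered 3, and 3 to 16 with 1 array left out. Members with all LPS arrays above numbered 0 under those first 2 settings and over descriptions that name 1 gene, 8 without both arrays numbered 3, and 1 to 7 with 1 array left out. Fewer arrays leave fewer values that could overlap. The matching shares of all tested clusters under these settings are not given here, so these counts cannot be set against the 3.1% and 3.61% above. With arrays centred on their medians, 59.1% of all tested clusters had a difference below 0, against 50.4% as deposited. The median of complex IV ran from -0.19 to 0.16 with 1 array left out. Of 44 named members 12 had another sign without saline 3, and 0 to 7 under the other settings, counts that again have no share of all tested clusters beside them. Leaving out the pseudogene, a choice made after seeing the data, gave a median of -0.09.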
